A study of Mus musculus with 5 samples.

Results

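The 38 autophagy genes described here code for the machinery that builds, loads and clears the autophagosome, from the kinases that start it to the transcription factors and membrane proteins of the lysosome. They were chosen by name and by no cut on measured values, though with earlier results of these data known. They were matched by Ensembl identifier through GENCODE M21. All 38 were found among the 27101 genes with usable values, and all 38 passed the filter on low reads that left 14900 genes for testing. The cells were N2a, a mouse neuroblastoma line. They were transfected by the same lipid protocol with a control siRNA (siCtrl, 2 libraries) or with an siRNA against Ewsr1 (siEwsr1, 3 libraries), so that transfection itself is common to both groups, and they were collected a day after the last of repeated transfections. The product of Ewsr1 binds RNA and DNA. Total RNA was sequenced after removal of ribosomal RNA. Whether the replicates are separate cultures is not labelled, and if they are not, the p-values below reflect technical spread alone.

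Autophagy encloses cytoplasm in a double membrane and delivers it to the lysosome. The ULK kinase complex starts the process, a phosphatidylinositol 3-kinase complex around Beclin 1 marks the site with the lipid PI3P, and lipid transfer proteins and PI3P-binding proteins let the membrane grow. Ubiquitin-like conjugation systems then attach proteins of the ATG8 family (the LC3 and GABARAP proteins) to that membrane, cargo receptors tie ubiquitinated cargo to them, and fusion with the lysosome ends the process. In neurons and neuron-like cells this route removes protein aggregates and worn organelles. As background, lower Uvrag and altered autophagy have been described in Ewsr1-deficient cells, which gives the comparison of these genes its question.

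Levels are RPKM, reads scaled to exonic length and to the library total, whose lost decimal points were restored as the processing section describes. The libraries held 15045774 to 21339459 counted reads, and members had from 54 reads (Atg2a in siEwsr1 replicate 1) to 10820 reads (Lamp1 in siEwsr1 replicate 2). Ewsr1 itself stood at 71.7 and 72.3 RPKM in siCtrl and at 35.7, 36.3 and 37.6 RPKM in siEwsr1, a log2 fold change of -0.95 with SE 0.07 that passed the test (adjusted p = 0.0211, limma). The Ewsr1 values rest, at least in part, on a decimal position above the lowest one that gives whole reads. The alternative without such genes therefore does not hold Ewsr1. No gene, Ewsr1 included, passed when either siCtrl library or siEwsr1 replicate 1 was dropped, although Ewsr1 itself had log2 fold changes from -0.97 to -0.94 in those fits (adjusted p up to 0.271). On the first principal component of all tested genes (45.1% of variance) siCtrl scored -21.3 and -28.6 while siEwsr1 scored 16.4, 33.7 and -0.23, so that siEwsr1 replicate 3 lay nearest the controls. Of the markers of the labelled line, 13 of 16 were tested, and Nefl and Nefm were at or near 0. Of the 13 tested, 3 were called higher, Ina and Isl1 among them, 0 were called lower and 10 were not called. The log2 fold change was above 0 for 10 of the 13 and below 0 for the others. The summed level of the labelled line's markers was 987 to 1002 RPKM in siCtrl and 1063 to 1185 RPKM in siEwsr1. The summed fibroblast and mural markers stood at 36.7 to 36.9 RPKM in siCtrl and 24.6 to 31.4 RPKM in siEwsr1, nearly all of it Fbln1, with Acta2 lower and Col1a1, Col1a2 and Dcn at or near 0. Sums of leukocyte, epithelial and endothelial markers did not exceed 1.05 RPKM in any library. The part of these marker differences in the members' values was not tested.

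None of the 38 autophagy genes passed the test. With limma and Benjamini-Hochberg adjustment over all tested genes, 0 were called lower and 0 higher at an adjusted p under 0.05. At an unadjusted p under 0.05, 8 of the 38 passed (5 lower and 3 higher), which is near the background of 20.2% of all tested genes. Across all genes 259 of 14900 were called, which is 1.74%, with 0.953% lower and 0.785% higher, so a count of 0 among 38 is near that background. The members' log2 fold changes ran from -0.69 (Ulk2) to 0.30 (Atg4d), 19 above 0 and 19 below, with a median of -0.00 beside -0.01 over all genes. Their median absolute log2 fold change was 0.12, beside 0.19 over all genes. Within 0.3 of 0 stayed 34 of 38, a larger share than the 68.0% of all genes. These comparisons were not matched on level, and the members' median level in siCtrl was higher (8.18 RPKM beside 5.01 RPKM). The 95% interval lay wholly within a 1.5-fold change in either direction for 30 of the 38. For each gene taken singly, these intervals give the range of change under the reported fit, which a missed threshold alone does not. They are not adjusted over the 38 genes. Like the p-values, they reflect technical spread alone if the replicates are not separate cultures.

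Whether any member passed depended on the settings. Sqstm1 and Ulk2 had the smallest adjusted p, at 0.0668 and 0.0813. With the variance trend taken on the mean log2 of reads in place of the mean log2 RPKM, an alternative chosen after its calls had been seen, both were called lower (adjusted p = 0.0186 and 0.0271), among 767 genes in all. They were also called by limma-voom on the recovered reads (adjusted p = 0.0137 and 0.0225), with a filter at 50 reads (0.0332 and 0.0398) and without siEwsr1 replicate 3 (0.0179 and 0.0368). Sqstm1 alone was called with the replicate number as a block (adjusted p = 0.0495). Neither passed when any other single library was left out, where the adjusted p of this pair ran from 0.0666 to 0.442. The smallest p of an exact permutation test is 0.1 for groups of 2 and 3.

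**Figure D1:**
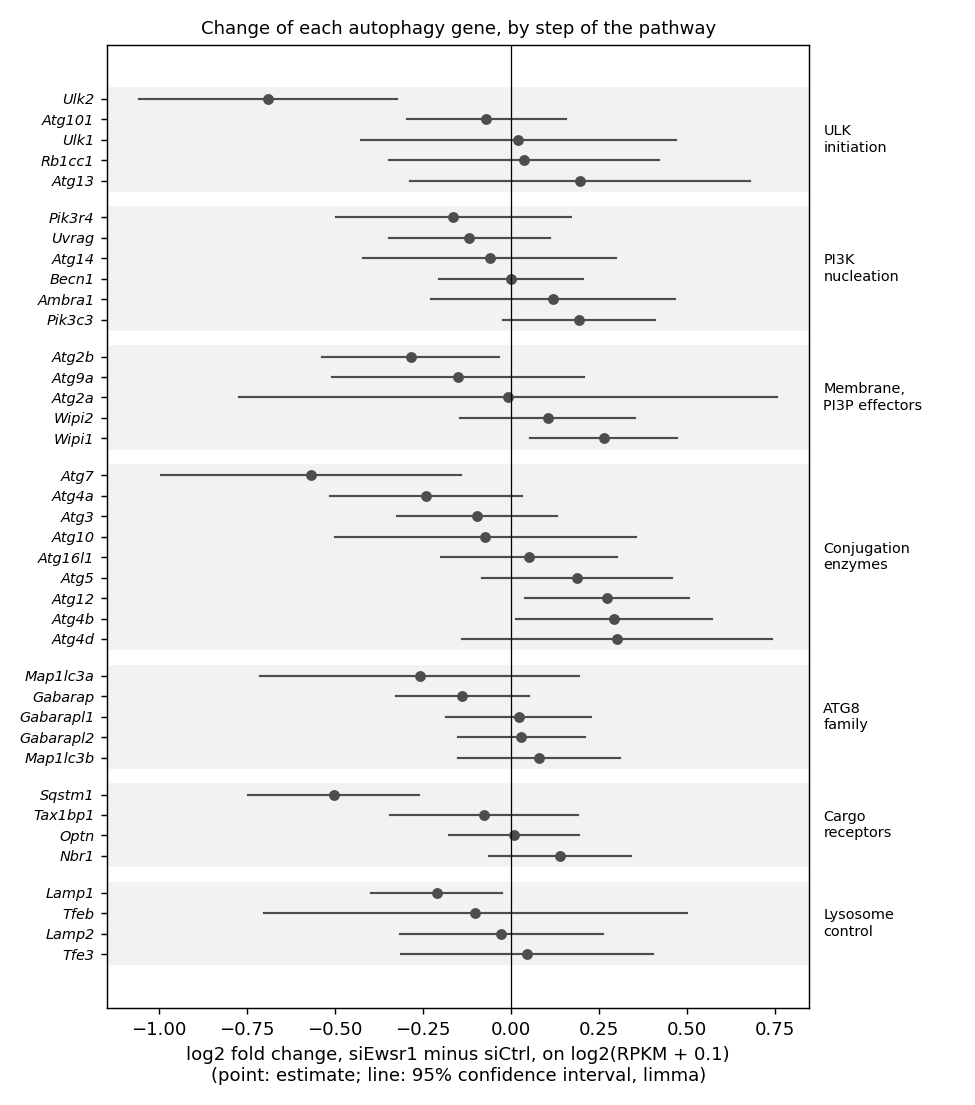
Log2 fold change (siEwsr1 minus siCtrl) of each of the 38 genes on the horizontal axis, with genes on the vertical axis grouped by step; points are limma estimates and lines 95% confidence intervals. Ulk2 (-0.69), Atg7 (-0.57) and Sqstm1 (-0.50) lie farthest from 0, and most other genes lie within 0.3 of it.

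The groups did not overlap, after scaling, for 15 of the 38 genes, 9 with both controls above all siEwsr1 libraries and 6 with both below. Over all tested genes 39.8% did not overlap, 19.9% in each direction, so 15 of 38 is near the background. The 9 were Ulk2, Pik3r4, Uvrag, Atg2b, Atg4a, Atg7, Gabarap, Sqstm1 and Lamp1, and the 6 were Pik3c3, Wipi1, Atg4b, Atg4d, Atg12 and Nbr1. In these bulk libraries, fewer cells of a kind and less RNA per cell cannot be told apart.

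The members' levels in siCtrl spanned from 0.532 RPKM (Atg2a) to 226 RPKM (Lamp1), with a median of 8.18 RPKM beside 5.01 RPKM over all tested genes. Lamp1, a major glycoprotein of the lysosomal membrane, and Sqstm1, the cargo receptor p62, stood far above the rest. Next came Gabarap at 40.5, Gabarapl2 at 33.7 and Atg5 at 27.2 RPKM. At the low end, Ulk1, Atg13 and Tfeb lay between 1.05 and 1.35 RPKM.

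**Figure D2:**
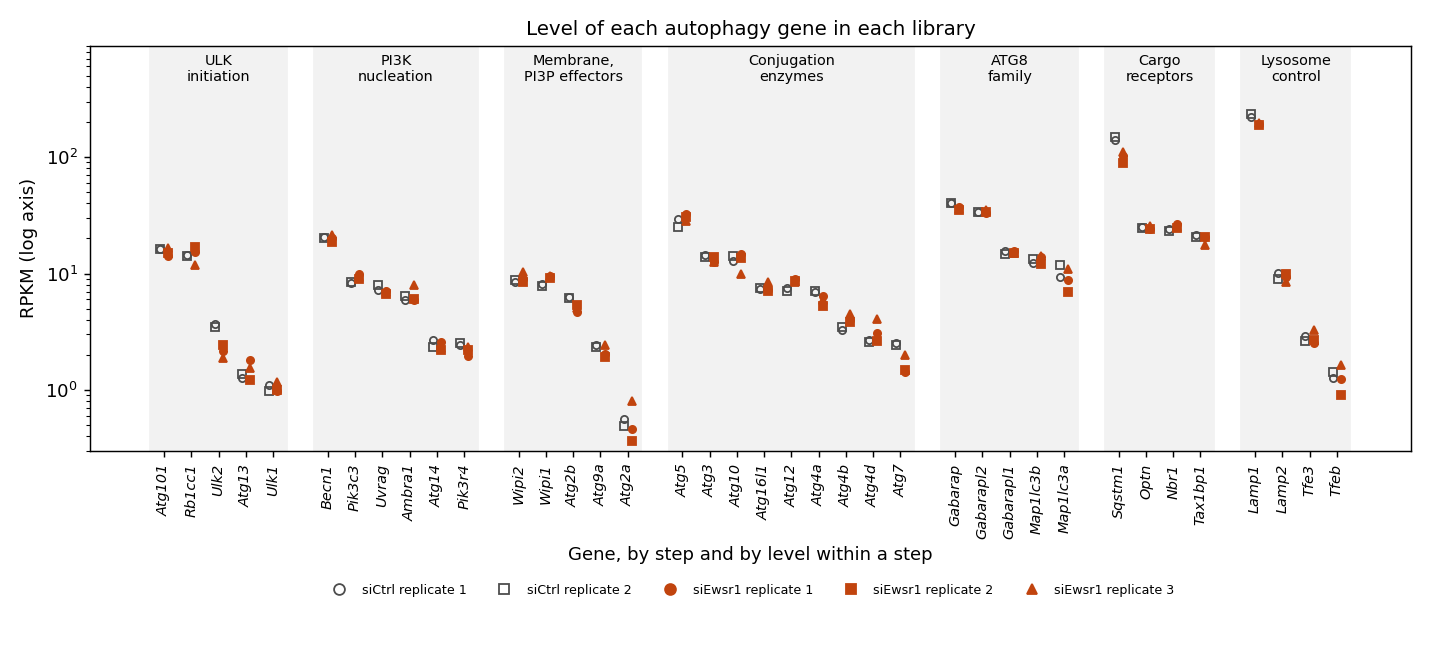
RPKM of each gene in each library on a log axis, with genes along the horizontal axis by step and by level; open grey symbols are siCtrl libraries and filled orange symbols siEwsr1 libraries. Lamp1 and Sqstm1 lie highest, Atg2a lowest, and for most genes the symbols of both groups lie close together.

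The ULK initiation complex consists of a kinase, Ulk1 or Ulk2, with the adaptors Atg13 and Atg101 and the scaffold Rb1cc1 (FIP200). Of its 5 members none was called, 3 lay above 0 and 2 below, with a median log2 fold change of 0.02. Ulk2 (ENSMUSG00000004798, chromosome 11, 61775649 to 61855073, minus strand) measured 3.66 and 3.50 RPKM in siCtrl and 2.15, 2.43 and 1.90 RPKM in siEwsr1. All siEwsr1 libraries lay below both controls, with siEwsr1 replicate 3 the lowest. Means came to 3.58 ± 0.115 RPKM in siCtrl (SD, n = 2) and 2.16 ± 0.268 RPKM (SD, n = 3), a difference of -39.7% and a log2 fold change of -0.69 (SE 0.15, 95% interval -1.06 to -0.32, adjusted p = 0.0813, limma). Its sign was the same under all 16 alternatives, from -0.78 to -0.52, and it was called in 4 of them.

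Ulk1, the other kinase of the complex, measured 1.10 and 0.988 RPKM in siCtrl and 0.983, 0.997 and 1.16 RPKM in siEwsr1, a log2 fold change of 0.02 (95% interval -0.43 to 0.47). The groups overlapped, and the sign of Ulk1 was not stable across alternatives. Ulk2 made up 76.8% and 78.0% of the summed RPKM of both kinases in siCtrl and 68.6%, 70.9% and 62.0% in siEwsr1. This share, like the family shares given further on, was chosen after the values had been seen and was not tested. Atg101 (log2 fold change -0.07, adjusted p = 0.716) and Rb1cc1 (0.04, adjusted p = 0.921) overlapped between groups. Atg13 (0.20, adjusted p = 0.623) was a low gene at 1.32 RPKM in siCtrl, with an interval from -0.29 to 0.68.

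The promoter windows of Sqstm1 and Ulk2 are shown because this pair had the smallest adjusted p. Each window spans a transcription start and lies mostly upstream of it, from RefSeq on GRCm38.p6, at chr11:50210771-50211070 and chr11:61855043-61855342, both on the minus strand and written 5′ to 3′. Capitals mark matches to the searched motifs on either strand: CACGTG, the core bound by TFEB and TFE3, its palindromic extension TCACGTGA, TGATGNAA, the composite bound by ATF4, and TGACNNNGC, the antioxidant response element bound by NRF2. CACGTG lies within TCACGTGA, so matches to that pair overlap. Ulk2 holds 1 match, to TGACNNNGC, and the Sqstm1 window holds none of these letters.
Sqstm1: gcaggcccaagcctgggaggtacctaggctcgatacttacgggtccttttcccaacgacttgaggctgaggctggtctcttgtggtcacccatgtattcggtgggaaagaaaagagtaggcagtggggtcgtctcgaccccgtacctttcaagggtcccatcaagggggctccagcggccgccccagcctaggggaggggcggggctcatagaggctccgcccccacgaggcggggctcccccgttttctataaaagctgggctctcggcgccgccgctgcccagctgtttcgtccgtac
Ulk2: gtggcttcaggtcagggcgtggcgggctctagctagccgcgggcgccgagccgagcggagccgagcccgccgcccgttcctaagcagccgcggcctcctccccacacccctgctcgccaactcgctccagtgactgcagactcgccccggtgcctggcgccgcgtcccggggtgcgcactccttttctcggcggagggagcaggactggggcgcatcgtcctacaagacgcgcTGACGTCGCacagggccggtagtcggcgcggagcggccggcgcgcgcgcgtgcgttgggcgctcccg

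The PI3K nucleation complex showed small differences throughout. Its 6 members were the scaffold Becn1 (Beclin 1), the lipid kinase Pik3c3 (VPS34), its regulatory subunit Pik3r4 (VPS15), the alternative subunits Atg14 and Uvrag, which direct the complex to autophagosome formation or to endosomes, and Ambra1, a regulator of Beclin 1. None was called, all 6 lay within 0.2 of 0, and all 6 intervals lay within a 1.5-fold change. Pik3c3 lay farthest from 0, at 8.37 and 8.39 RPKM in siCtrl and 9.88, 9.07 and 9.40 RPKM in siEwsr1. All its siEwsr1 libraries lay above both controls. Its log2 fold change was 0.19 (SE 0.09, 95% interval -0.02 to 0.41, adjusted p = 0.291, limma).

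Uvrag (ENSMUSG00000035354, chromosome 7, 98885021 to 99141141, minus strand) measured 7.22 and 7.98 RPKM in siCtrl and 7.11, 6.64 and 6.88 RPKM in siEwsr1. The siEwsr1 libraries lay below both controls, but the highest of them was close to siCtrl replicate 1. The log2 fold change was -0.12 (SE 0.10, 95% interval -0.35 to 0.11, adjusted p = 0.531, limma), a difference of -9.45% in mean level. It was below 0 under all 16 alternatives, between -0.18 and -0.07, and was called in none. Of its exonic bases, 17.6% are shared with a gene on the opposite strand, and the strand setting of the counting is not given in the sources used here. Pik3r4 (-0.16, adjusted p = 0.550) also had both controls above all siEwsr1 libraries. Becn1, at 20.4 RPKM in siCtrl, had a log2 fold change of 0.00 (95% interval -0.20 to 0.21), and 43.9% of its exonic bases overlap Cntd1 on the opposite strand. Atg14 (-0.06) and Ambra1 (0.12) overlapped between groups. Becn1, Atg14 and Ambra1 changed sign under at least 1 alternative.

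Membrane supply and PI3P effectors comprise Atg9a, a membrane protein carried on vesicles, the lipid transfer proteins Atg2a and Atg2b, and the PI3P-binding proteins Wipi1 and Wipi2. None of the 5 was called, and their median log2 fold change was -0.01. Atg2b (chromosome 12, 105616136 to 105685211) measured 6.32 and 6.21 RPKM in siCtrl and 4.72, 5.34 and 5.08 RPKM in siEwsr1. All siEwsr1 libraries lay below both controls. Its log2 fold change was -0.28 (SE 0.11, 95% interval -0.54 to -0.03, adjusted p = 0.204, limma). Wipi1 lay the other way, at 8.07 and 7.88 RPKM in siCtrl and 9.54, 9.18 and 9.60 RPKM in siEwsr1. The spread within each of its groups was small beside the gap between them. Its log2 fold change was 0.26 (SE 0.09, adjusted p = 0.171).

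Atg2a was the lowest member, with 54 to 108 reads a library, and its interval ran from -0.77 to 0.76. The highest Atg2a value, 0.803 RPKM, and the lowest, 0.365 RPKM, were both in the siEwsr1 group (replicates 3 and 2). Wipi2 (0.10, adjusted p = 0.607) and Atg9a (-0.15, adjusted p = 0.608) overlapped between groups. Of the exonic bases of Atg9a, 32.6% are shared with Ankzf1 or Gm29253, in large part on the same strand. Its value may therefore hold reads of those genes or lack reads of its own.

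The conjugation enzymes lay on both sides of 0. Atg7 is the E1-like enzyme that activates ATG12 and the ATG8 proteins, Atg3 and Atg10 are E2-like enzymes, Atg12, Atg5 and Atg16l1 form the complex that directs ATG8 proteins to the membrane, and Atg4a, Atg4b and Atg4d are proteases that process them. Of the 9 members none was called, 5 lay above 0 and 4 below, from -0.57 to 0.30, and the groups did not overlap for 5. Atg7 (ENSMUSG00000030314, chromosome 6, 114643097 to 114860614, plus strand) measured 2.56 and 2.41 RPKM in siCtrl and 1.42, 1.4997 and 1.98 RPKM in siEwsr1. All siEwsr1 libraries lay below both controls, and siEwsr1 replicate 3 was nearest to them. Means came to 2.48 ± 0.103 RPKM in siCtrl (SD, n = 2) and 1.63 ± 0.302 RPKM (SD, n = 3), a log2 fold change of -0.57 (SE 0.18, 95% interval -0.99 to -0.14, adjusted p = 0.152, limma). Without siEwsr1 replicate 3 it was -0.70 and passed the test (adjusted p = 0.0342).

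Atg12 lay at 7.57 and 7.06 RPKM in siCtrl and 9.01, 8.68 and 8.44 RPKM in siEwsr1, above both controls in every siEwsr1 library (log2 fold change 0.27, adjusted p = 0.194). Atg5, its conjugation partner, was among the most abundant members and overlapped between groups at 0.19 (adjusted p = 0.398). Atg16l1 (0.05), Atg3 (-0.10) and Atg10 (-0.07) also overlapped. The 3 ATG4 proteases among the members did not lie on 1 side of 0. Atg4a had 6.98 and 7.03 RPKM in siCtrl and 6.39, 5.25 and 5.87 RPKM in siEwsr1 (-0.24, adjusted p = 0.293). Atg4b had 3.28 and 3.47 RPKM in siCtrl and 3.97, 3.83 and 4.49 RPKM in siEwsr1 (0.29, adjusted p = 0.228). Atg4d (0.30, adjusted p = 0.406) had its highest value, 4.07 RPKM, in siEwsr1 replicate 3, and 19.3% of its exonic bases overlap Kri1 on the opposite strand. A further ATG4 protease gene outside the members, Atg4c, was low, at 0.795 and 1.10 RPKM in siCtrl and 1.27, 1.93 and 1.25 RPKM in siEwsr1 (0.60, adjusted p = 0.252). The share of Atg4a in the summed RPKM of Atg4a, Atg4b and Atg4d was 54.0% and 53.8% in siCtrl and 47.6%, 44.8% and 40.7% in siEwsr1.

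**Figure D3:**
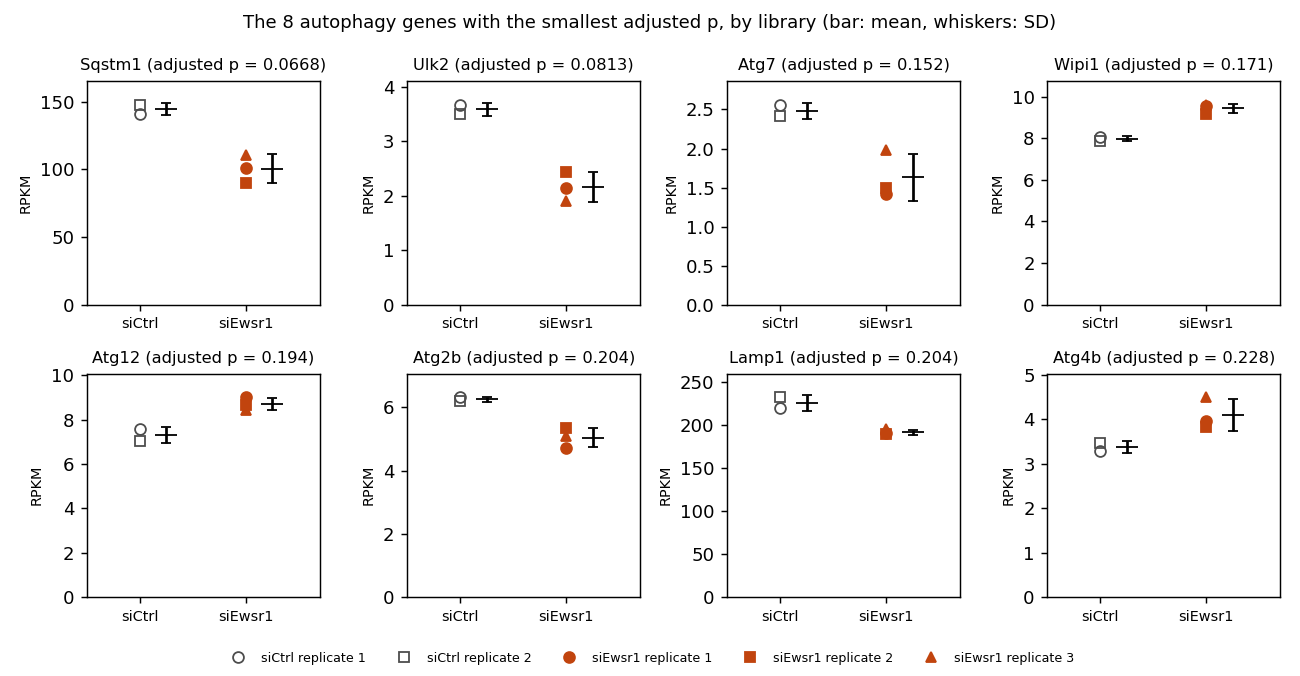
RPKM (vertical axes, from 0) of the 8 members with the smallest adjusted p, by group; symbols are libraries, and the bar with whiskers is the mean with its SD (n = 2 and n = 3). The groups do not overlap in any of the 8 panels, and none of the 8 genes passed the test over all genes (adjusted p from 0.0668 to 0.228).

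The ATG8 family, whose proteins mark the autophagosome membrane, stayed near 0 apart from its least abundant member. Of the 5 genes 0 were called, and the groups did not overlap only for Gabarap. Gabarap measured 40.6 and 40.3 RPKM in siCtrl and 37.6, 35.2 and 35.9 RPKM in siEwsr1 (log2 fold change -0.14, adjusted p = 0.378, limma). Map1lc3a, an LC3 gene, lay farthest from 0, at 9.40 and 11.9 RPKM in siCtrl and 8.78, 6.90 and 10.9 RPKM in siEwsr1. Its groups overlapped and its controls differed from each other by more than those of the other 4 genes, with a log2 fold change of -0.26 (SE 0.19, 95% interval -0.71 to 0.19, adjusted p = 0.483). Map1lc3b (0.08), Gabarapl1 (0.02) and Gabarapl2 (0.03) had adjusted p from 0.682 to 0.915, and each interval lay within a 1.5-fold change. Of the exonic bases of Gabarapl1, 28.3% overlap a gene on the opposite strand.

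Among the cargo receptors, Sqstm1 stood apart in level and in change. Sqstm1 (ENSMUSG00000015837, chromosome 11, 50199366 to 50210827, minus strand) measured 141 and 148 RPKM in siCtrl and 101, 89.7 and 111.0 RPKM in siEwsr1. All siEwsr1 libraries lay below both controls. Means came to 144 ± 4.53 RPKM in siCtrl (SD, n = 2) and 101 ± 10.7 RPKM (SD, n = 3), a difference of -30.3% and a log2 fold change of -0.50 (SE 0.10, 95% interval -0.75 to -0.26, adjusted p = 0.0668, limma). Its sign was the same in all 15 alternatives that hold it, from -0.57 to -0.43, and it was called in 5. The lowest decimal position was not the one used for Sqstm1, so its values rest on the choice of a higher reading, as do those of Lamp1, Becn1 and Atg3, and the alternative without such genes does not hold them. Of its exonic bases, 17.3% overlap Mrnip on the opposite strand.

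The other cargo receptors lay nearer 0. Nbr1, a receptor related to p62, measured 24.0 and 23.2 RPKM in siCtrl and 26.8, 24.8 and 25.1 RPKM in siEwsr1, above both controls throughout (log2 fold change 0.14, adjusted p = 0.405). Optn, the optineurin gene, was at 0.01 (95% interval -0.18 to 0.19) and Tax1bp1 at -0.08 (adjusted p = 0.738). Sqstm1 made up 66.8% and 68.4% of the summed RPKM of the 4 receptors in siCtrl and 58.5%, 56.3% and 62.0% in siEwsr1. The groups did not overlap in this share, which rests largely on the values of Sqstm1 itself and is not a separate observation.

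**Figure D4:**
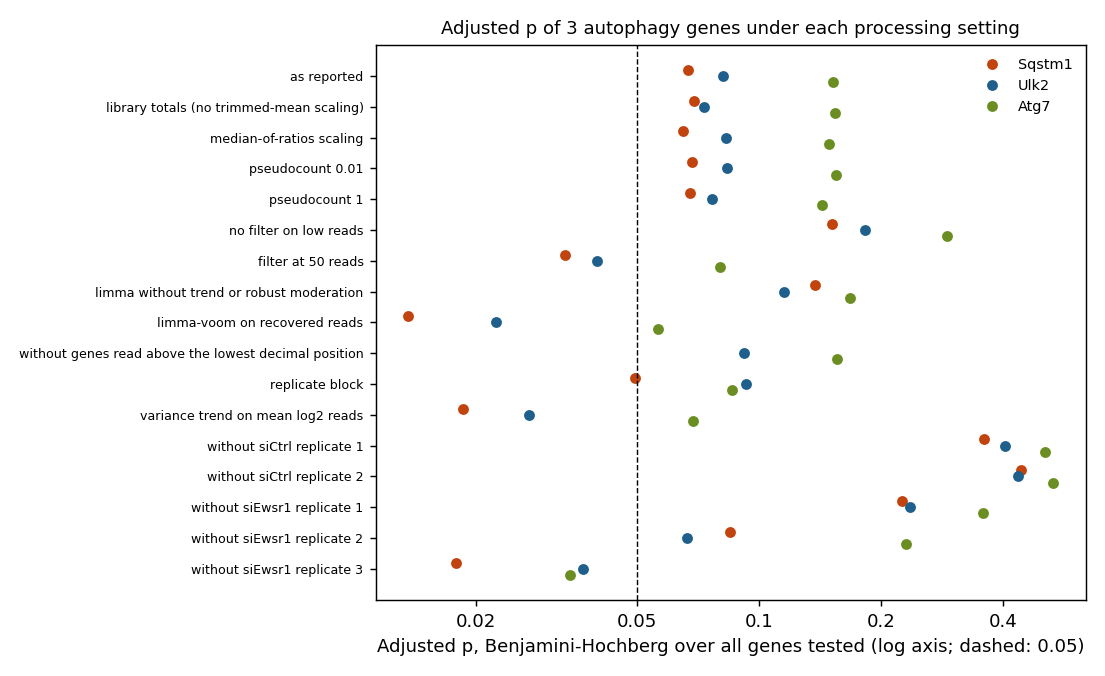
Adjusted p (horizontal log axis, dashed line at 0.05) of Sqstm1, Ulk2 and Atg7 under each processing setting (vertical axis), each adjusted over all genes tested in that setting. Sqstm1 and Ulk2 lie left of the line in 5 and 4 of the alternatives and right of it in the rest, and Atg7 lies left of it only without siEwsr1 replicate 3.

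Lysosome control was represented by Tfeb and Tfe3, transcription factors that drive lysosomal and autophagy genes, and by the membrane proteins Lamp1 and Lamp2. None of the 4 was called. Lamp1 (chromosome 8, 13159161 to 13175338) measured 220 and 232 RPKM in siCtrl and 192, 190 and 195 RPKM in siEwsr1. All siEwsr1 libraries lay below both controls and close together, with a log2 fold change of -0.21 (SE 0.08, 95% interval -0.40 to -0.02, adjusted p = 0.204, limma). Lamp2 (-0.03), Tfe3 (0.05) and Tfeb (-0.10) overlapped between groups, with adjusted p from 0.855 to 0.921. Tfeb had its lowest value, 0.901 RPKM, in siEwsr1 replicate 2 and its highest, 1.64 RPKM, in siEwsr1 replicate 3, and its interval ran from -0.70 to 0.50.

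Because TFEB and TFE3 bind CACGTG, the members' promoter windows were searched for it. A window was present for 32 of the 38 members (38 windows), and CACGTG occurred in windows of 5 of them, Atg14, Atg3, Atg5, Atg7 and Lamp1. Of all 32851 windows of this length, 7.15% hold CACGTG. This and the other motif shares count windows, not genes, so they are not directly comparable with counts of members. The sites of Atg7 and Atg14 lie inside the annotated span of the gene, away from its outermost start. TCACGTGA occurred in Atg3 alone among members (0.974% of all windows), TGATGNAA in none (3.97%), and TGACNNNGC in Atg13, Map1lc3b, Tax1bp1 and Ulk2 (12.4%). The log2 fold changes of the 5 members with CACGTG ran from -0.57 (Atg7) to 0.19 (Atg5). The motifs were chosen with earlier results of these data known, and a match describes letters in a window, not binding. Each site is printed with 12 bases on either side, 5′ to 3′ on the strand of its gene, with the motif in capitals. Lamp1 holds 4 sites in 1 window. The GRCm38.p6 positions are chr14:47568418-47568447 (Atg14, minus strand), chr16:45158723-45158752, chr16:45158746-45158775 (Atg3), chr10:44268313-44268342 (Atg5), chr6:114670952-114670981 (Atg7) and chr8:13159088-13159117, chr8:13159104-13159133, chr8:13159121-13159150, chr8:13159134-13159163 (Lamp1), the last 4 genes on the plus strand.
Atg14: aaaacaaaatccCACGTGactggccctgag
Atg3 site 1: gcctccttttgtCACGTGtcctgggagagt
Atg3 site 2: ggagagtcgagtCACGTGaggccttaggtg
Atg5: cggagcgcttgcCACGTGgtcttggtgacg
Atg7: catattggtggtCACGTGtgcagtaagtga
Lamp1 site 1: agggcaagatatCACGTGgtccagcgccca
Lamp1 site 2: tggtccagcgccCACGTGatgccgactggc
Lamp1 site 3: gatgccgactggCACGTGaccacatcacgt
Lamp1 site 4: acgtgaccacatCACGTGcggaacggagcc

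A pair of 7-base words in 3′ UTRs was also looked up, taken from an earlier scan of these same fold changes, so that their relation to the data is not independent evidence. TCACTGC is carried by 14.3% of the 11922 tested genes with an annotated 3′ UTR, whose median log2 fold change was 0.08 beside -0.01 for the others. GCAATTT is carried by 8.4%, with a median of -0.07 beside 0.01. Among members, TCACTGC occurs in Atg12 (0.27), Atg16l1 (0.05), Map1lc3b (0.08) and Wipi1 (0.26), each with a log2 fold change above 0, although that of Atg16l1 changed sign under some alternatives. Of all TCACTGC carriers 62.8% lay above 0, beside 48.1% of the others, and the word was picked from these same values. GCAATTT occurs in Ulk2 (-0.69), Atg14 (-0.06) and Wipi1 (0.26). Only some of the sites are shown, with 10 bases on either side and the word in capitals. They are those of Ulk2 at chr11:61777143-61777169 (minus strand), Wipi1 at chr11:109573770-109573796 (minus strand) and Map1lc3b at chr8:121597860-121597886 (plus strand), on GRCm38. Each lies in a gene that changed in the direction of its word's median. The GCAATTT site of Wipi1, which goes against that direction, is not printed, nor are the sites of Atg14, Atg16l1 and Atg12.
Ulk2 GCAATTT: attggattttGCAATTTaaaactaact
Wipi1 TCACTGC: cctgggtgccTCACTGCagtcaatgct
Map1lc3b TCACTGC: ctgtaaattcTCACTGCtctgtcttgt

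Genes around the core machinery were read from the same fit, in which 1.74% of all 14900 tested genes were called. That share is the background for the count of calls in each list. Of 17 tested other autophagy genes 1 rose, 0 fell and 16 were not called, with a median log2 fold change of -0.08. The gene that rose was Ei24, whose protein acts in autophagy at the endoplasmic reticulum. It stood at 3.53 and 3.36 RPKM in siCtrl and 7.39, 8.16 and 7.89 RPKM in siEwsr1, which is 1.18 higher on the log2 scale with SE 0.10 (adjusted p = 0.0223, limma), beyond that of any of the 38 members. Of 15 tested receptors for organelles 0 were called, and Phb2, a mitochondrial inner membrane receptor, had the smallest adjusted p (0.20, adjusted p = 0.2996).

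Of the 32 tested nutrient sensing and mTORC1 genes, which act upstream of the ULK complex, 1 rose, 1 fell and 30 were not called, with a median of -0.03. Lamtor3, a subunit of the Ragulator scaffold that holds mTORC1 at the lysosome, stood at 8.11 and 8.89 RPKM in siCtrl and 14.4, 12.1 and 13.1 RPKM in siEwsr1 (log2 fold change 0.65, adjusted p = 0.0434). Sesn2, a leucine sensor that restrains mTORC1, stood at 19.2 and 19.8 RPKM in siCtrl and 10.7, 9.47 and 13.3 RPKM in siEwsr1 (-0.79, adjusted p = 0.0474). For both, the groups lay clear of each other.

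Of 18 V-ATPase genes, whose pump acidifies the lysosome, 0 were called (smallest adjusted p 0.259, Atp6v0e2, -0.24), and their median was 0.01. Of 14 late endosome tethering genes 0 were called (smallest adjusted p 0.0660, Vps39, 0.50), with a median of -0.06. With 1 library left out in turn, the log2 fold change of Ei24 ran from 1.13 to 1.23, that of Lamtor3 from 0.59 to 0.71 and that of Sesn2 from -0.92 to -0.69. Ei24 and Lamtor3 each passed in 2 of these 5 fits and Sesn2 in 1, and none of them passed when either siCtrl library or siEwsr1 replicate 1 was dropped (adjusted p up to 0.368).

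**Figure D5:**
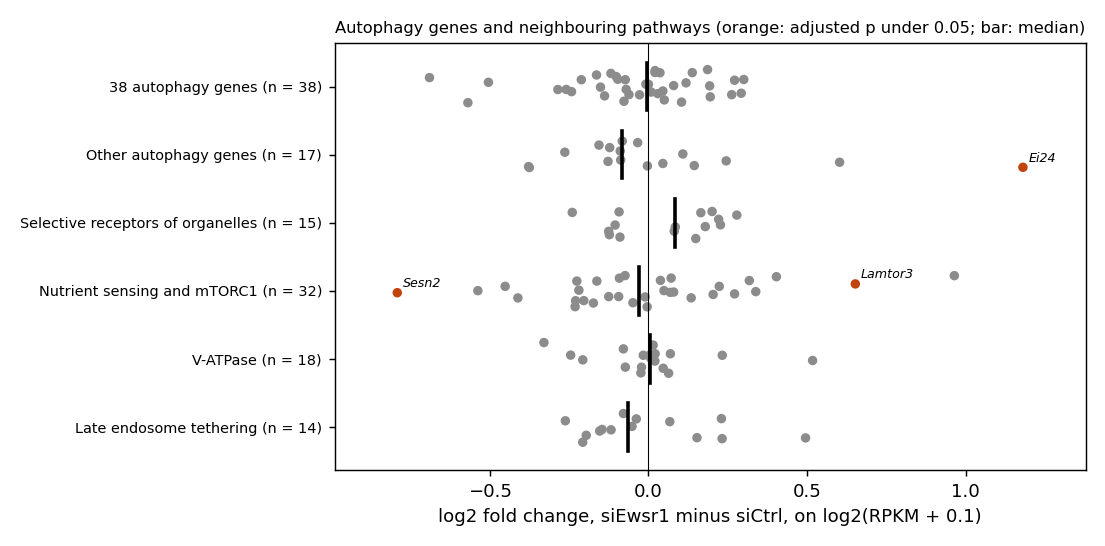
Log2 fold change (horizontal axis) of the 38 members and of each tested gene of the 5 neighbouring lists (vertical axis, spread at random within a row for legibility); orange points are genes with an adjusted p under 0.05 and bars are medians. The medians run from -0.08 to 0.09, and of the genes plotted, Ei24, Lamtor3 and Sesn2 lie past the threshold.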

How the data were processed

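Total RNA of 5 N2a libraries was sequenced from stranded, ribosome-depleted libraries, per the labels' protocols. Per the submitters' processing notes, STAR 2.5.2b, featureCounts 1.5.1 and edgeR were used on GRCm38. For the annotation, strand setting and multi-mapping reads, the sources used here state nothing. The authors deposited 1 file per library with 54838 genes and no named unit, recorded here as other than plain RPKM: the values behave as RPKM, but those of 1 or more lost their decimal point. Samples were grouped by their titles.

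The decimal point was restored by requiring that the value times exonic length (GENCODE M21) times library total give whole reads. Where several positions gave whole reads, they were chosen jointly over all libraries, without group labels. The choice set a factor of 10 against each position above the lowest and favoured values close together across libraries. Agreement between libraries, and so between groups, was thus part of the choice. Of 27101 genes kept, 1985 were read above the lowest position. Of intact values 98.5% to 98.6% were whole within 1e-06 reads. Lengths were solved from the values for 568 of the 27255 genes above 0, 105 were left out at odds under 20, and 49 had no whole reading. All 38 members used the annotated length. The restoration settings were adjusted on these data, after the recovered sums and the genes left out, Ewsr1 among them, had been seen. Changes near 4-fold or 10-fold were often left out or misread in simulated data.

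A gene was tested if 2 or more libraries held 10 or more reads, scaled to the median library, with limma 3.58.1 (R 4.3.3) on log2(RPKM + 0.1), which understates changes of low genes, after trimmed-mean scaling (30% of ratios, 5% of levels), with group as the only term, trend and robust moderation, and Benjamini-Hochberg adjustment, called under 0.05. Both readings of the planned variance trend were tried, and calls under both had been seen: limma's own, on mean log2 RPKM, is reported, and the trend on mean log2 reads is given as an added alternative. Scaling on tested rather than all genes was likewise settled after both had been seen. The fit was tested on simulated data.

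The members and lists were chosen with earlier results of these data known. Every member is accounted for. Full values are given for any called member, for the member farthest from 0 in each step and for the smallest adjusted p. From each list, called genes are named, or the gene with the smallest adjusted p. Some markers and a list of lysosomal genes are not reported here. Other genes named with values, and the family shares, were chosen after their values were seen. Alternatives changed the scaling, pseudocount, filter, variance model, test, decimal reading and replicates. The sequences are from RefSeq (GRCm38.p6 promoters) and the GENCODE M21 transcripts.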

Additional observations from a re-analysis of the deposited data

How the results depend on the processing

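Against 259 genes called and 0 members lower and 0 higher, the counts were 577, 2 and 0 with a filter at 50 reads, 841, 2 and 0 with limma-voom, 550, 1 and 0 with the replicate block, 767, 2 and 0 with the variance trend on mean log2 reads (chosen after seeing the data), 109, 0 and 0 without genes read above the lowest decimal position, 0, 0 and 0 without a filter (3376 genes at an unadjusted p under 0.05) and 0, 0 and 0 in limma without trend or robust moderation (2777). Leaving out 1 library each gave 0 to 1983 genes, 0 to 3 members lower and 0 higher: 0 genes when siCtrl replicate 1 was dropped (1670 at an unadjusted p under 0.05), likewise siCtrl replicate 2 (1352) and siEwsr1 replicate 1 (2039), then 165 after dropping siEwsr1 replicate 2, and 1983 after dropping siEwsr1 replicate 3, when Atg7, Sqstm1 and Ulk2 were called. With 1 control left, it is assumed to vary like the siEwsr1 libraries. Other scalings and pseudocounts gave 236 to 284 genes and no member.

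Ewsr1 kept its direction but missed the threshold without a filter (-0.96, adjusted p = 0.0704), without trend or robust moderation (-0.95, adjusted p = 0.0710) and after dropping siCtrl replicate 1 (adjusted p = 0.271), siCtrl replicate 2 (0.270) or siEwsr1 replicate 1 (0.129), with log2 fold changes of -0.97 to -0.94 when 1 library was left out.

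Members near 0 changed sign. With the replicate block these were Ulk1 (-0.040), Becn1 (-0.035), Ambra1 (-0.011), Atg10 (0.11), Atg16l1 (-0.015), Optn (-0.0029), Tax1bp1 (0.015), Tfe3 (-0.047) and Lamp2 (0.046). With library totals they were Becn1 (-0.022), Gabarapl1 (-0.0011) and Optn (-0.014), with a filter at 50 reads Becn1 (-0.015) and Optn (-0.0066), without a filter Becn1 (-0.0073), with limma-voom Becn1 (-1.9e-04), and with a pseudocount of 1 Atg2a (0.0087). Leaving out 1 library each, sign changes occurred within these ranges: Ulk1 -0.070 to 0.11, Rb1cc1 -0.078 to 0.19, Becn1 -0.040 to 0.043, Atg14 -0.18 to 0.056, Ambra1 -0.015 to 0.19, Atg2a -0.27 to 0.19, Atg10 -0.19 to 0.10, Atg16l1 -0.020 to 0.092, Gabarapl1 -0.044 to 0.081, Optn -0.026 to 0.038, Tax1bp1 -0.12 to 0.011, Tfeb -0.29 to 0.097, Tfe3 -0.051 to 0.13 and Lamp2 -0.14 to 0.078.

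The titles number the replicates without saying whether equal numbers pair the libraries. Deviations of same-numbered libraries correlated across genes at 0.03 (number 1) and -0.12 (number 2). The deviations of the 2 controls mirror each other by construction, so these correlations cannot settle whether the libraries are paired. The siEwsr1 replicate 3 library has no partner, and the block leaves it without weight on the contrast. The causes of these shifts were not tested. Atg2a had the fewest reads of the members and the largest standard error, 0.32. Counting error and spread between libraries were not separated.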
